A study of Mus musculus with 6 samples.

Results

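Golgins are long coiled-coil proteins that stand on the Golgi membrane and catch incoming vesicles, and the stacking proteins hold neighbouring cisternae together. In β-cells proinsulin passes through the Golgi stack and is packed into immature granules at the trans-Golgi network, so this machinery lies on the route of the cell's main product. The genes described are *Golga1*, *Golga2*, *Golga3*, *Golga4*, *Golga5*, *Golgb1*, *Gcc1*, *Gcc2*, *Gorasp1* and *Gorasp2*, found by gene symbol, and all 10 of them were among the 16640 genes with a count in the 6 libraries. They were chosen from their family with measured differences between conditions and between replicate numbers already known. Their values in both comparisons are therefore a description. Calls among them, made in fits over all genes, are counted beside the share of all genes called, and nothing is read from them.

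RNA came from MIN6 cells, a mouse β-cell line of insulinoma origin, in a control group and a *Thada*-activated group with 3 libraries each. The *Thada*-activated group was a stable line, infected with lentiviruses for dCas9-VP64 and for an sgRNA to the *Thada* promoter with MS2-P65-HSF1 (the SAM activators) and selected with puromycin and G418. Control cells received lentiviruses for dCas9 and a non-targeting sgRNA. MIN6 cells were kept in high-glucose DMEM. The libraries are named here by condition and replicate number. Library totals lay between 17166511 and 17727004 counts. Nothing in the labels says that the 3 libraries of a condition came from separate cultures, so that p-values measure only the spread between these samples, which may be technical. A general statement of the study on its in vitro work speaks of independent experiments, without naming the RNA libraries. All 13 β-cell markers had counts, led by *Ins2*. One of them, the glucose transporter gene *Slc2a2*, lay between 0.0573 and 0.512 CPM, which are counts scaled to a common library total and by TMM factors.

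*Thada*, the targeted gene, had levels of 28.0, 28.9 and 17.2 CPM in replicates 1, 2 and 3 of the control and of 57.3, 56.2 and 49.1 CPM in the *Thada*-activated group. The groups did not overlap, and the *Thada*-activated library was higher in 3 of 3 replicate numbers. An exact two-sided permutation test gave p = 0.1, which is the smallest that 3 against 3 libraries allow. The log2 fold change in edgeR was 1.13 with a standard error of 0.22 and an adjusted p of 1.0. With the replicate number as a block it was 1.15 (standard error 0.10, adjusted p = 0.00041 in edgeR).

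Libraries of replicate 3 stood apart from those of replicates 1 and 2 in both conditions. After the condition mean was removed, a library of replicate 3 had a correlation across genes of 0.869 with the other library of that number. *Ins2* took 10.2% and 8.36% of counts in control and *Thada*-activated replicate 3, against 5.65% to 6.44% in the other 4 libraries. Of the 13 β-cell markers, *Ins1* and *Ins2* were higher in both replicate 3 libraries than in the other 4, and 8 were lower in both (*Iapp*, *Pdx1*, *Nkx6-1*, *Nkx2-2*, *Mafa*, *Neurod1*, *Slc30a8* and *Ucn3*). *Pdx1*, a β-cell transcription factor gene, was at 106 and 112 CPM in replicate 3 against 204 to 232 CPM, and *Iapp*, which encodes a peptide released with insulin, at 20640 and 24390 CPM against 31380 to 37290 CPM. Ribosomal protein genes took 2.50% and 2.52% in replicate 3, against 1.31% to 1.51%. The 10 Golgi genes together took 0.0931% and 0.0866% of counts in control and *Thada*-activated replicate 3. In replicates 1 and 2 they took from 0.0988% to 0.106%. In bulk RNA, fewer cells that express a gene and less of its RNA per cell cannot be told apart.

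Within a library the genes were ordered by FPKM, which accounts for transcript length. Over the 4 libraries of replicates 1 and 2, *Gorasp2*, which encodes GRASP55, a stacking protein of the medial Golgi, was the most abundant at 105 ± 1.94 FPKM (mean ± SD, n = 4). *Golga2*, which encodes the cis-Golgi matrix protein GM130, followed at 31.4 ± 0.755 FPKM. *Golga5* (21.9 ± 1.23), a membrane-anchored golgin, and *Golga4* (20.6 ± 2.20), a trans-Golgi golgin, came next and their ranges overlapped. *Golga4* was the higher of these in both control libraries and *Golga5* in both *Thada*-activated ones. *Golga4* also overlapped *Golga3*, which encodes a peripheral golgin and lay at 17.3 ± 0.912 FPKM. The large membrane-anchored golgin giantin (*Golgb1*) lay at 14.0 ± 0.880 FPKM. *Gcc2* (12.3 ± 0.969) and *Gcc1* (11.4 ± 0.767), both trans-Golgi golgins, overlapped each other. The lowest levels were those of *Golga1* (10.1 ± 0.232), another trans-Golgi golgin, and of *Gorasp1* (8.22 ± 0.374), which encodes the cis-Golgi stacking protein GRASP65. *Gorasp2* exceeded 94.6% of the 12516 tested genes by mean FPKM and *Gorasp1* exceeded 40.0%.

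The genes of the stacking pair lay far apart in level. The FPKM of *Gorasp2* divided by that of *Gorasp1* was between 11.9 and 13.9 in replicates 1 and 2. In replicate 3 it was 11.04 in control and 9.54 in *Thada*-activated cells. In replicate 3 *Golga1* was last, at 3.36 FPKM in control and 4.10 FPKM in *Thada*-activated cells. *Gorasp1* was above *Golgb1* in the control library (9.82 and 7.92 FPKM) and below it in the *Thada*-activated one (9.14 and 10.01 FPKM). *Golga4* was above *Golga5* in both.

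**Figure D1:**
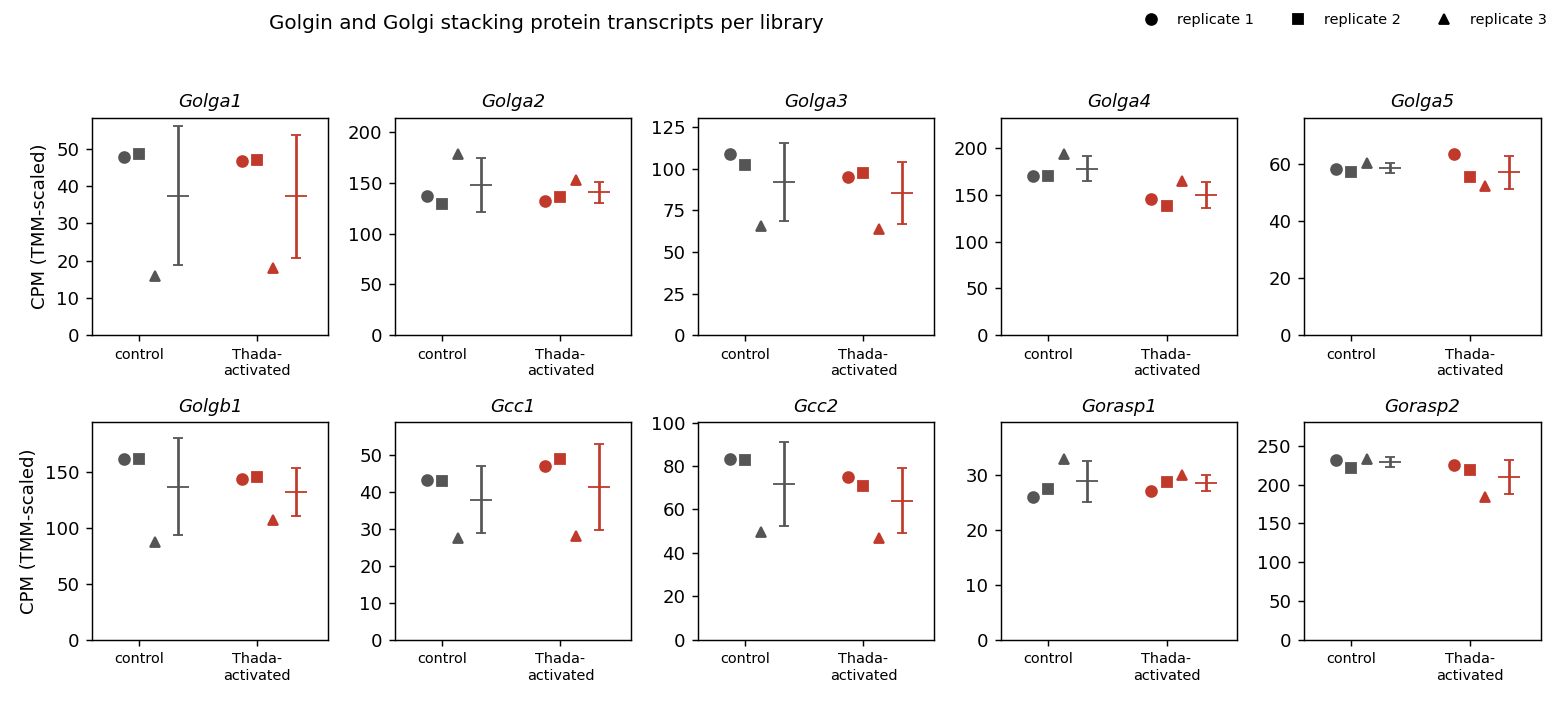
CPM (TMM-scaled) of the 10 genes in each of the 6 libraries, by condition on the horizontal axis, with symbols for the replicate number and bars for the mean and SD of 3 libraries. *Golga1* lies at 15.9 and 18.1 CPM in the replicate 3 libraries and between 46.5 and 48.5 CPM in the other 4.

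Between conditions, 0 of the 10 genes passed both limits of a call in edgeR, beside 0.0% of all 12516 tested genes. These limits were an adjusted p below 0.05 and a fold change above 1.5. In simulated data where replicate 3 differed as here, this fit without the block called none of the changed genes. Its 0 therefore cannot tell whether the members differ. At an unadjusted p under 0.05, 101 genes (0.807%) and 0 of the 10 passed in edgeR. At both limits of a call, the DESeq2 Wald test called 5 genes and 0 of the 10. With the replicate block in edgeR 19 genes were called, or 0.152%, and again 0 of the 10. The unadjusted p was then under 0.05 for 1302 genes (10.4%) and for 2 of the 10, *Golga4* and *Gcc2*. The median log2 fold change of the 10 genes was -0.07 without the block and -0.05 with it, and those of all tested genes were -0.0040 and -0.00092. By library, 1 of the 10 genes, *Golga4*, did not overlap between conditions, beside 5.4% of tested genes. No reading is drawn from these shares.

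*Golga4*, whose product carries a GRIP domain and tethers vesicles from endosomes at the trans-Golgi network, lay at 170, 170 and 193 CPM in replicates 1, 2 and 3 of the control. Its *Thada*-activated levels were 145, 138 and 165 CPM. The *Thada*-activated library was the lower of the pair in each of the 3 replicate numbers. The log2 fold change was -0.25 with a standard error of 0.12. With the replicate block it was also -0.25 (standard error 0.06, adjusted p = 0.132 in edgeR).

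*Gcc2*, a GRIP golgin that also binds Rab proteins, was at 83.4, 82.6 and 49.4 CPM in the control libraries and at 74.9, 70.6 and 46.8 CPM in the *Thada*-activated ones. It was lower in every pair, by less than the gap between replicate 3 and the others. The log2 fold change was -0.16 with a standard error of 0.27, and the block gave -0.16 with a standard error of 0.07. *Gcc1*, a further GRIP golgin, was the 1 gene that was higher in every pair, at 43.3, 43.0 and 27.5 CPM in control and 47.1, 49.0 and 28.0 CPM in *Thada*-activated cells. Its log2 fold change was 0.12 with a standard error of 0.28. *Golga1*, the remaining GRIP golgin, was at 47.8, 48.5 and 15.9 CPM in control and 46.5, 46.9 and 18.1 CPM in *Thada*-activated cells. Its conditions differed far less than its replicate numbers did, with a log2 fold change of -0.01 and a standard error of 0.53.

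*Golga3* was at 109, 102 and 65.4 CPM in control and at 95.2, 97.3 and 63.7 CPM in *Thada*-activated cells. *Gorasp2* was at 231, 221 and 233 CPM in control and at 225, 219 and 184 CPM in *Thada*-activated cells. Both were lower in all 3 pairs, and for *Gorasp2* most of the gap came from replicate 3, where the log2 ratio of *Thada*-activated to control was -0.34, against -0.04 and -0.01 in replicates 1 and 2.

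The other genes changed sides between pairs. *Golga2* was at 137, 129 and 178 CPM in control and at 132, 136 and 153 CPM in *Thada*-activated cells. *Golga5* was at 58.4, 57.3 and 60.6 CPM in control and at 63.6, 55.7 and 52.3 CPM in *Thada*-activated cells, and *Gorasp1* at 26.1, 27.5 and 33.03 CPM against 27.1, 28.7 and 30.0 CPM. For these 3 genes the libraries of the conditions overlapped, and the log2 fold changes were -0.08, -0.04 and -0.01. Giantin (*Golgb1*) was at 161, 162 and 87.2 CPM in control and at 143, 145 and 107 CPM in *Thada*-activated cells. Its log2 ratios of *Thada*-activated to control were -0.17, -0.16 and 0.29 in replicates 1, 2 and 3, the last from 1 library of each condition. An interaction of the condition with replicate 3 had an adjusted p under 0.05 for 2 of the 10, *Golgb1* and *Gorasp2*, in edgeR, beside 6.96% of tested genes, and for *Golgb1* by the DESeq2 Wald test, beside 0.903%. DESeq2 gave *Golga1*, *Gcc1* and *Gorasp1* no adjusted p, so these could not pass, while its share is taken over all tested genes. No call is drawn from the interaction, since the genes were chosen with these differences known and replicate 3 has 1 library per condition.

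Between replicate numbers the log2 differences of the 10 genes ranged from -1.48 to 0.31, against -0.25 to 0.12 between conditions. In replicate 3, 5 of the 10 were called lower with a fold change over 1.5, beside 15.3% of all tested genes called lower, 15.7% called higher and 31.0% called in either direction. With no fold limit 8 of the 10 were called, beside 65.7% of tested genes: 5 lower, beside 32.9%, and 3 higher, beside 32.8%. The median log2 difference was -0.38 over the 10 genes and 0.002 over all tested genes. No reading is drawn from these shares, since the comparison was known when the genes were chosen.

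Of the 4 GRIP golgins 3 were among the 5. *Golga1* differed most, at a log2 difference of -1.48 (standard error 0.09) or 2.79-fold, with log2 ratios of -1.60 in control and -1.37 in *Thada*-activated cells. Its lowest count was 277 in control replicate 3, with an exact 95% Poisson interval of 245 to 312 that covers counting error only. *Gcc1* had a log2 difference of -0.72 (standard error 0.08) and *Gcc2* of -0.69 (standard error 0.07). The fourth GRIP gene, *Golga4*, went the other way, at 0.20 (standard error 0.06), so that the FPKM of *Golga4* divided by that of *Golga1* was between 1.83 and 2.19 in replicates 1 and 2 and was 7.49 and 5.36 in replicate 3.

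*Golga3* and giantin completed the 5, with log2 differences of -0.64 (standard error 0.07) and -0.65 (standard error 0.09). For giantin the log2 ratio was -0.89 in control and -0.43 in *Thada*-activated cells, each from 1 replicate 3 library. Without control replicate 3 giantin was at -0.43 and short of the fold limit, and with limma on log2(FPKM + 1) *Golga3* was short of it at -0.58. The cis-Golgi pair *Golga2* and *Gorasp1*, whose products bind each other, had log2 differences of 0.31 and 0.21 in replicate 3. By condition the log2 ratios were 0.42 in control and 0.18 in *Thada*-activated cells for *Golga2*, and 0.30 and 0.11 for *Gorasp1*. Without control replicate 3 the differences were 0.18 and 0.11. The call of *Gorasp1* at any fold (adjusted p = 0.0492 in edgeR) was lost by DESeq2, by limma, with no filter and without any 1 library other than *Thada*-activated replicate 3. That of *Golga4* was lost without control replicate 1 or *Thada*-activated replicate 1 or 2, and with no condition term. *Golga5* (-0.06) and *Gorasp2* (-0.11) were not called, but *Gorasp2* was called at -0.27 without control replicate 3. By library, both replicate 3 values lay below the other 4 for 5 genes, beside 35.9% of tested genes, and above them for 2 genes, beside 35.9%.

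Transcript length moved with this difference. An effective length was computed for each gene from counts and FPKM, as the median over libraries where both passed a low limit. The tested genes with such a length (11754 of 12516) were split by it into 4 groups of equal size. From the shortest to the longest group the median log2 difference of replicate 3 was 0.17, 0.08, -0.03 and -0.18. The 10 genes have long transcripts, with a median of 4456 bases against 2707 over the tested genes with a length. Of the 10, 6 are in the longest group. For the removal of a length trend, tested genes without a length were given the median length. When a trend on length was removed from each library, the median over the 10 genes was -0.20 and 2 of the 10, *Golga1* (-1.38) and *Gcc1* (-0.64), were called lower, beside 14.3% of tested genes. *Golga3* (-0.47), *Gcc2* (-0.49) and *Golgb1* (-0.22) fell short of the fold limit. With no fold limit 9 of the 10 were called, 6 lower and 3 higher, beside 64.6% of tested genes, and *Gorasp2* (-0.17) was among them. *Golga4* was then at 0.48 and *Golga2* at 0.39. The part of length in the difference of any single gene was not tested.

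**Figure D2:**
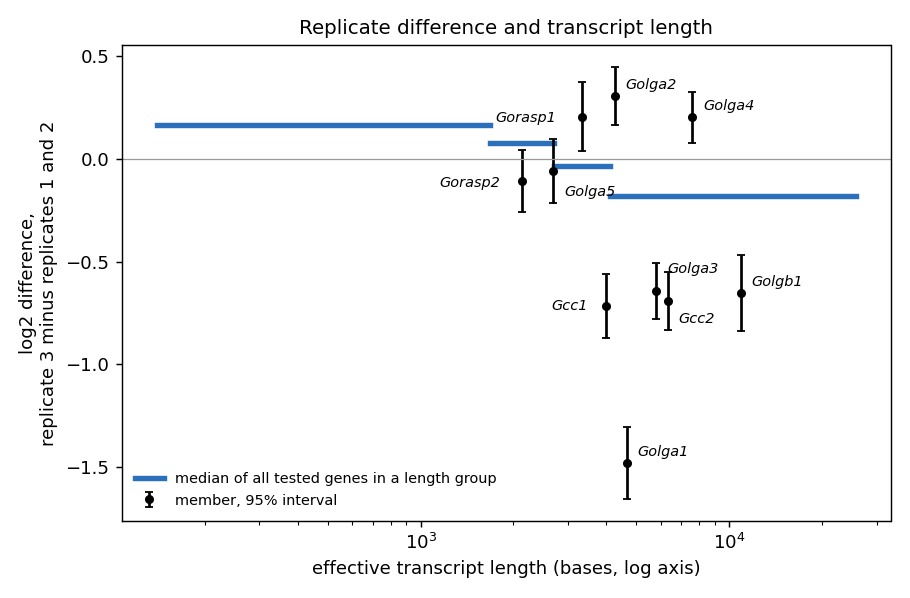
Log2 difference of replicate 3 from replicates 1 and 2 (vertical axis) against effective transcript length in bases (log axis), for the 10 genes with 95% intervals. Blue lines are the median of the tested genes with a length in each of the 4 length groups. The medians go from 0.17 in the shortest group to -0.18 in the longest, and *Golga1* lies at -1.48.

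The 10 genes were compared among themselves by the root mean square difference of their centred log2 CPM over the 6 libraries. The closest pairs were *Golga3* with *Gcc2* (0.0533), *Golga5* with *Gorasp2* (0.0694) and *Golga2* with *Gorasp1* (0.0744). The nearest to *Golgb1* (0.1) and to *Gcc1* (0.125) was *Golga3*, and the nearest to *Golga4* was *Golga2* (0.13). *Golga1* was near no other member, with *Gcc1* the closest at 0.372. Of 9726 other genes with a mean of at least 10 CPM, the 10 closest to the mean profile of the group were *Klhl2*, *Wnk1*, *Dsel*, *Selenof*, *Gxylt1*, *Psmd13*, *Rab3d*, *Alg2*, *Ubac1* and *Kif1b*. Their root mean square differences over the 6 libraries ranged from 0.0141 to 0.0256.

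Markers of other cell types were compared over the same libraries, since some moved with the replicate number. The delta-cell list (2 of 2 markers analysed) summed to 156, 129 and 69.0 CPM in control and 143, 131 and 58.0 CPM in *Thada*-activated replicates 1, 2 and 3, nearly all of it *Sst*, with *Hhex* at 0 in 4 libraries. The duct list (3 of 4) summed to 151, 151 and 73.1 CPM and to 184, 185 and 97.2 CPM, nearly all of it *Krt7*, with *Sox9* at 0 in 4 libraries. The polypeptide-cell marker *Ppy* (1 of 1) was at 19.7, 17.8 and 27.9 CPM and at 22.5, 21.6 and 38.9 CPM. The alpha-cell list (3 of 4), led by *Gcg*, lay between 18.6 and 26.2 CPM. Summed levels of the fibroblast (4 of 5, led by *Col1a1*), macrophage (2 of 4, led by *Cd68*), endothelial (3 of 3, led by *Pecam1*) and acinar (1 of 5, *Cela3b*) lists were at most 6.37, 1.24, 1.26 and 0.114 CPM. The β-cell list summed to 109200, 98070 and 131700 CPM in control and to 103400, 101400 and 114900 CPM in *Thada*-activated cells. Most of it was *Ins2*, at 64400, 56400 and 103000 CPM in control and 64260, 62870 and 81880 CPM in *Thada*-activated cells. The part of these markers in the differences of the Golgi genes was not tested.

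Other genes linked to Golgi tethering and to Golgi functions were followed through 9 lists that together hold 106 genes, of which 105 were tested. Between conditions, 0 of the 105 were called at any fold, with or without the replicate block. In replicate 3, 42 were called lower and 27 higher with no fold limit, beside 32.9% and 32.8% of all tested genes. With a fold change over 1.5, 14 were lower and 8 higher, beside 15.3% and 15.7%. The counts of each list stand beside these same shares, and nothing particular to a list is read from them. With the length trend removed, the 105 genes gave 42 lower and 27 higher with no fold limit, beside 31.8% and 32.8% of all tested genes. The medians of the 9 lists between conditions with the block lay between -0.10 and 0.03.

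Of 12 other golgins and matrix partners, 6 were called lower and 2 higher in replicate 3 with no fold limit (32.9% and 32.8% over all tested genes), with a median log2 difference of -0.35, and 2 lower and 0 higher past the fold limit. The lowest p-values were those of *Trip11*, a microtubule-linked golgin (-0.94), the dynein adaptor *Bicd1* (-1.01) and *Uso1*, which encodes the tether that binds GM130 and giantin (-0.58). *Trip11* was at -0.59 with the length trend removed. Between conditions with the block, the lowest p-values belonged to *Uso1*, *Acbd3* and *Golga7*, at log2 fold changes of -0.16, -0.16 and -0.12, none called.

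Of 20 small GTPases and their regulators, 9 were called higher and 4 lower in replicate 3 (32.8% and 32.9% over all tested genes), with a median log2 difference of 0.13. Past the fold limit 3 were higher and 1 lower. *Arl1*, which recruits GRIP golgins to the trans-Golgi network, was higher by 0.73 and *Arf1* by 0.71, while *Arfgef2*, an Arf exchange factor, was lower at -0.64. *Arl1* (0.50) and *Arfgef2* (-0.30) fell short of the fold limit with the length trend removed. The condition fit with the block gave *Arf4* (-0.20), *Arf5* (0.16) and *Rab1a* (-0.12) the lowest p-values, none called. *Arf5* shares 3043 bases of the genome with *Gcc1* on the opposite strand.

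The multisubunit tethers were taken by complex. In the COG complex 3 of 8 subunits were called lower in replicate 3 and 0 higher (median -0.05), 1 of them past the fold limit, with *Cog1* at -0.73, *Cog8* at -0.53 and *Cog7* at -0.32. With the length trend removed 2 were past the fold limit, as *Cog8* was at -0.60, and 1 of the 8 was called higher. All 5 tested subunits of the GARP and EARP complexes were called lower, with a median of -0.51 and 1 past the fold limit, and *Vps53* (-0.82), *Vps52* (-0.51) and *Vps54* (-0.51) had the lowest p-values. In the TRAPP complexes 4 of 14 were called lower and 2 higher (median -0.06), 1 of the latter past the fold limit, with *Trappc6a* at 1.11, *Trappc13* at -0.36 and *Trappc11* at -0.30. With the length trend removed 7 of the 14 were called lower and the median was -0.19. In the blocked condition fit the lowest p-values belonged to *Cog1* (0.19), *Cog6* (-0.18) and *Cog5* (-0.12), to *Vps51* (0.25), *Vps53* (-0.10) and *Vps54* (-0.09), and to *Trappc8* (-0.11), *Trappc10* (-0.10) and *Trappc9* (0.09). None of these 9 was called.

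The Golgi SNARE list held 12 genes, those of SNAREs, which fuse the tethered vesicles, and *Scfd1*, a SNARE-binding Sec1 family gene. In replicate 3, 7 of the 12 were called higher and 4 lower, with a median log2 difference of 0.30. Past the fold limit 1 was higher, *Sec22b* at 0.70, and 1 lower, *Scfd1* at -0.89, which is not a SNARE. *Gosr1* was at 0.45. The median of the 12 was 0.19 with the length trend removed. Of the trans-Golgi adaptors 5 of 9 were called lower and 0 higher (median -0.19), 2 of them past the fold limit, led by *Ap1m1* (-0.90), *Ap1g2* (-0.77) and *Ap1g1* (-0.34), all subunits of the clathrin adaptor AP-1. With the length trend removed 3 of the 9 were called lower (median -0.11), and *Ap1g1*, at -0.11, was not called (adjusted p = 0.148 in edgeR). Between conditions with the block the lowest p-values were those of *Gosr1* (-0.14), *Bet1* (-0.11) and *Sec22b* (-0.12) among SNAREs, and of *Ap1g2* (0.14), *Ap1b1* (-0.09) and *Gga3* (-0.07) among adaptors.

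Of 18 tested genes in a glycosylation list, not all of them for Golgi enzymes, 8 were called lower and 6 higher in replicate 3. The median was 0.05, and 3 were lower and 2 higher past the fold limit. Without the length trend 6 were called lower and 7 higher. The α-mannosidase gene *Man1a* was at 1.14, *Uap1l1* at -1.34 and the N-glycan branching enzyme gene *Mgat2* at -0.77. Of 7 Golgi stress transcription factor genes 3 were called lower and 1 higher, all past the fold limit (median -0.15), with *Creb3l2* at -0.96, *Mlx* at -0.98 and *Creb3* at -0.62. Without the length trend 2 of the 7 were called higher with no fold limit. Between conditions with the block, the lowest p-values were those of *Mgat4a* (-0.25), *Galnt2* (0.15) and *Mgat5* (0.16), and of *Creb3l1* (-0.41), *Creb3* (-0.13) and *Creb3l2* (-0.08), none called.

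The 10 genes lie on 7 chromosomes of GRCm38, and those on 1 chromosome are not neighbours. *Golga1* (chr2:39016155-39065541), *Golga2* (chr2:32287384-32307921) and *Gorasp2* (chr2:70661576-70712636) are on chromosome 2. *Golga4* (chr9:118506267-118582519) and *Gorasp1* (chr9:119925257-119937565) are on chromosome 9. *Golga3* (chr5:110176701-110226470), *Golga5* (chr12:102469135-102497907), *Golgb1* (chr16:36875140-36933085), *Gcc1* (chr6:28416091-28428390) and *Gcc2* (chr10:58255497-58305599) are each alone on theirs. Of the genes with counts, *Swi5* overlaps *Golga2*, *Arf5* and *Fscn3* overlap *Gcc1*, *Wdr48* overlaps *Gorasp1* and *Tlk1* overlaps *Gorasp2*, all on the opposite strand. Use of strand in counting is not given in the sources used here, so reads in the shared bases cannot be told apart. Counts of *Gorasp1* were not whole, from 445.34 to 576.4, and part of its reads was shared out by the authors' estimate.

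The RefSeq promoter table (GRCm38.p6) matched 8 of the 10 genes in 9 windows, and holds none for *Golga4* and *Golgb1*. Motifs linked to Golgi stress and cAMP responses were searched on both strands in windows of 250 bases before to 50 bases after the start. The Golgi apparatus stress response element ACGTGGC was in 1 of the 9 windows, that of *Golga3*, and in 2.58% of all 32851 windows. The E-box CACGTG, which can share its last 5 letters with the first motif, was in 3 windows, of *Golga5* and *Gorasp1*, and in 7.15% of all. TGACGTCA and TGACGTGG were in 0 of the 9 windows and in 1.79% and 0.676% of all. A match describes the letters alone.

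The 250 bases before the start are shown for the pair called lower in replicate 3 also without the length trend, *Golga1* and *Gcc1*, and for *Golga5*, which was called in neither comparison. Each is written 5′ to 3′ on the strand of the gene, with CACGTG in capitals. That of *Golga1* (chr2:39065542-39065791, minus strand) ends at the annotated start of the gene and is 69.6% G or C. That of *Gcc1* (chr6:28421725-28421974, minus strand) lies in an intron of the gene in GENCODE and is 58.0% G or C. That of *Golga5* (chr12:102468884-102469133, plus strand) overlaps no annotated gene and is 66.8% G or C. A second window of *Golga5* is not shown, and its 250 bases (chr12:102469660-102469909) lie in an exon of the gene. They are 36.8% G or C and also hold CACGTG.
*Golga1*: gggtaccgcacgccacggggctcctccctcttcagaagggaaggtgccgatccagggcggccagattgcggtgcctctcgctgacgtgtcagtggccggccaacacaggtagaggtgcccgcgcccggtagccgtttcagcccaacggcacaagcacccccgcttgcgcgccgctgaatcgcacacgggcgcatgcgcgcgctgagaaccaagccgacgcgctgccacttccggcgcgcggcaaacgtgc
*Gcc1*: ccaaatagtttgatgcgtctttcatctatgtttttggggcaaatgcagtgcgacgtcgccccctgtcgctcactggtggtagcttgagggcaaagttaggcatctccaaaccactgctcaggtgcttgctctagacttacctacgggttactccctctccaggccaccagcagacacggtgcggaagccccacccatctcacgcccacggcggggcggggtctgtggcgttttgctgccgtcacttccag
*Golga5*: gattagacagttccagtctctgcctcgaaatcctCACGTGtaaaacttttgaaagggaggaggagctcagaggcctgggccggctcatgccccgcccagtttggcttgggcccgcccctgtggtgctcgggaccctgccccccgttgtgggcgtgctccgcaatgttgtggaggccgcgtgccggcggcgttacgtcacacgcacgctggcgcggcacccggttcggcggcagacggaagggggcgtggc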

How the data were processed

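For the 3 control and 3 *Thada*-activated MIN6 libraries the paper names a BGISEQ-500 instrument. The sample labels name Illumina library protocols. The authors deposited, per gene and library, one expected count that was not normalized and an effective length, and the submitters' processing notes name Bowtie2, RSEM, DESeq2 and GRCm38. The authors also deposited FPKM, which divide counts by transcript length and library size. The log2 fold changes, p-values and q-values of the authors' own comparison were not used. A broken continuation line of text (1 line) was dropped from the table. Library totals from 17166511 to 17727004 counts set the precision.

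Expected counts, after rounding to integers, entered edgeR 4.0.16 under R 4.3.3 (filterByExpr, TMM, robust quasi-likelihood test). Calls needed a p below 0.05 after Benjamini-Hochberg adjustment over all tested genes and a fold change above 1.5. The interaction was called at the adjusted p alone. The condition was the only term in the main comparison. Replicate 3 was compared with the mean of replicates 1 and 2, with the condition as a further term. CPM were scaled by TMM. DESeq2 1.42.0 and limma 3.58.1 (on log2 FPKM with 1 or 0.1 added) were alternatives, beside DESeq2 size factors, library sizes without the 20 top genes in place of TMM, no filter, at least 10 counts in every library, each library left out, removal of a length trend, a threshold with no fold limit, and 2 simpler terms for replicate 3. The edgeR fits by condition, with the block, for replicate 3 and for the interaction were tested on simulated data. When replicate 3 differed there as in the real libraries, the fit by condition without the block called none of the changed genes.

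Replicate numbers came from the sample titles. Libraries of the same number deviated together from their condition means, with correlations across 12516 genes of 0.667, 0.671 and 0.869, so the numbers were taken to pair the libraries and a fit with the replicate block was run. Control 1 with *Thada*-activated 2 (0.705) and control 2 with *Thada*-activated 1 (0.726) were higher than the pairs of numbers 1 and 2, so that these values set only replicate 3 apart. Chi-square tests of counts found no duplicated library within a condition.

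The members and lists were chosen with earlier results of these data known. Genes named are the 10 members, *Thada*, cell-type markers and the counted genes that overlap a member. Also named are the 10 genes of at least 10 CPM with the closest profile. From each of 9 lists, the 3 with the lowest p in the blocked condition fit are named. So are the 3 with the lowest p in the comparison of replicate 3. Locations are from GENCODE M21 and promoter windows from RefSeq. Some markers, among them *Cpa1*, *Cpb1*, *Cela1*, *Ptf1a*, *Cftr*, *Pdgfra*, *Ptprc* and *Csf1r*, were not analysed here. Analyses outside R used Python 3.11.15.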

Additional observations from a re-analysis of the deposited data

Results flagged for a closer look

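For 3 genes an interaction term, which sets the condition difference in replicate 3 against that in replicates 1 and 2, had an adjusted p under 0.05 in edgeR, as did 6.96% of 12516 tested genes. The DESeq2 Wald test passed 0.903% of them. Replicate 3 has 1 library per condition, which is assumed to vary like the others, and the first 2 genes were chosen with the differences known, so no call is drawn. Giantin (*Golgb1*) had an interaction of 0.46 on the log2 scale, and DESeq2 gave it an adjusted p of 0.0313. *Gorasp2* had an interaction of -0.32, and DESeq2 gave an adjusted p of 0.156. *Thada* had an interaction of 0.52, with a control level of 17.2 CPM in replicate 3 against 28.0 and 28.9 CPM in the others, and DESeq2 gave no adjusted p. Genes without an adjusted p in DESeq2 could not pass there, while its share is taken over all tested genes. The interaction was not run without the length trend.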

How the results depend on the processing

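Between conditions the count of genes called was 0 in the main fit and moved with the test and with the design. It was 5 by the DESeq2 Wald test and 19 with the replicate block. With the replicate block it was also 26 with the length trend removed, 43, 18 and 70 without the pair of replicate 1, 2 or 3, and, in alternatives chosen after seeing the data, 28 with no fold limit, 20 by DESeq2, 19 with DESeq2 size factors and 22 without the 20 top genes. None of the 10 members was called between conditions in any of these. With 1 library left out and no block, 0 of all genes were called, so that a count of 0 members there shows nothing of stability.

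*Thada* passed the threshold by the DESeq2 Wald test and in every fit run with the replicate block, and in none of the other fits without it, those with 1 library left out among them. Its log2 fold change was 1.13 by the DESeq2 Wald test, and with the replicate block 1.15, 1.17 with the length trend removed, 1.22, 1.26 and 0.99 without the pair of replicate 1, 2 or 3, 1.15 with no fold limit, 1.16 by DESeq2, 1.15 with DESeq2 size factors and 1.17 without the 20 top genes. The block changed no other call named here.

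In replicate 3, the members called were 8 with no fold limit, 2 with the length trend removed and 4 with limma on log2(FPKM + 1), and all genes called were 8218 with no fold limit. The members' median was -0.20 with the length trend removed and between -0.39 and -0.30 with 1 library left out, the latter without *Thada*-activated replicate 3. With 1 library left out, 4 or 5 members were called, the 4 without control replicate 3, where *Golgb1* fell short. For the interaction the DESeq2 Wald test, an alternative chosen after seeing the data, passed 1 member and 113 of all genes, against 2 and 871 in edgeR. The cause of these shifts was not tested.

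Signs of the members' condition differences were not stable. Over 21 alternatives that refit the values 2 members (*Golga4* and *Gorasp2*) kept their sign in all and 8 did not, and the members' median lay between -0.15 and 0.02 with 1 library left out. In replicate 3, 8 members kept their sign over 16 such alternatives, and *Golga5* and *Gorasp2* changed sign in 1 each. Single members' values in the replicate comparison moved by more than 1 SD of replicates 1 and 2 in 50 cases and by less in 110, and their condition values did so in 72 cases and by less in 138. All 210 moved by less than 1 SD of the libraries of a condition, a spread that holds the gap of replicate 3. The members' lowest count was 277, with a counting interval of 245 to 312, and the effect of depth was not tested.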
